A study of Rattus norvegicus with 36 samples.

Results

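The Hox genes are 20 genes here, read by 22 of the 30367 probes of the array: all those whose accession led to a symbol of Hoxa, Hoxb, Hoxc or Hoxd and a number. They were measured in thyroid tissue of 36 male Sprague Dawley rats, 1 array (Agilent, 1 colour, Cy3) a rat. In all, 8 groups of 4 rats had received 131I, at 9, 88, 170 and 260 kBq in the lower 4 and at 340, 760, 1300 and 4700 kBq in the upper 4. This beta-emitting iodine isotope, which the thyroid takes up, was given in a tail vein, and 4 control rats were mock-treated (0 kBq). All 36 thyroids were taken 24 h later. The rats had been injected in order of activity with the controls last, and 4 rats shared a cage, so that activity, order of handling and perhaps cage cannot be told apart. Levels are log2 processed signal minus the 75th percentile of the array, and a probe is "well above background" on an array where the scanner software set that mark.

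Hox genes code for homeodomain transcription factors that give embryonic cells their position along the head-to-tail axis. They lie in 4 clusters, Hoxa to Hoxd, and genes of 1 paralog group hold the same place in each cluster. Low-numbered genes at the 3′ end are known to be switched on early and as far forward as the hindbrain and pharyngeal arches, and high-numbered genes at the 5′ end in the trunk, limbs and tail. Adult cells often keep part of their embryonic Hox pattern, fibroblasts and smooth muscle among them, and the thyroid region joins tissue of several origins.

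The promoters of 5 Hox genes are shown first: those of Hoxa2, Hoxd4, Hoxd9 and Hoxd10, whose levels followed marker genes of neighbouring tissues, and that of Hoxc4, which had the highest ratios to the controls. Each is given as the 250 bases before the annotated start, 5′ to 3′ on the strand of the gene (RefSeq, build GRCr8). The positions are chr4:82595693-82595942 (minus strand) for Hoxa2, chr3:80021636-80021885 for Hoxd4, chr3:80007756-80008005 for Hoxd9, chr3:80001697-80001946 for Hoxd10 and chr7:136048809-136049058 for Hoxc4, the last 4 on the plus strand. The table held a promoter for 11 of the 20 Hox genes, and for 6 of the 9 detected ones. Capitals mark each match, on either strand, to TGATNNAT (the joint site of Pbx and Hox proteins), TGACAG (Meis), AGGTCA (a half-site of nuclear receptors, retinoic acid receptors among them), GGGCGG (the GC box) or TATAAA (the TATA box).
Hoxa2: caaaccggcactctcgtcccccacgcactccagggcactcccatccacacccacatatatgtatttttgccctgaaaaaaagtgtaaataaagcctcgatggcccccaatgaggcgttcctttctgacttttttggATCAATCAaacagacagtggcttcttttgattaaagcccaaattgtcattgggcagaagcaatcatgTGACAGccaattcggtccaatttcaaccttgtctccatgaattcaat
Hoxd4: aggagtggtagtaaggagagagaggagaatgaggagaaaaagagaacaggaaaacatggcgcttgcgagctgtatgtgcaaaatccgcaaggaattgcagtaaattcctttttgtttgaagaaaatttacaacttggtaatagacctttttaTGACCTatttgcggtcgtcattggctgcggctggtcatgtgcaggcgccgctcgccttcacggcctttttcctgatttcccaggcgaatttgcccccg
Hoxd9: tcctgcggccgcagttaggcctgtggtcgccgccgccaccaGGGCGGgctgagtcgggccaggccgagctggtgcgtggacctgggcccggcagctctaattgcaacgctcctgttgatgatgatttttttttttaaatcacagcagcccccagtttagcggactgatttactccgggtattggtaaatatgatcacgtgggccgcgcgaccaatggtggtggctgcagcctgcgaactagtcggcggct
Hoxd10: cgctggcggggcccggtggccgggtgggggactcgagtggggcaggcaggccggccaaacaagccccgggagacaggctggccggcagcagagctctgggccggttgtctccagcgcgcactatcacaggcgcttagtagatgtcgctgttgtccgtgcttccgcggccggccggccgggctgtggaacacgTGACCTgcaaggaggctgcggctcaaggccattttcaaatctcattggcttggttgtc
Hoxc4: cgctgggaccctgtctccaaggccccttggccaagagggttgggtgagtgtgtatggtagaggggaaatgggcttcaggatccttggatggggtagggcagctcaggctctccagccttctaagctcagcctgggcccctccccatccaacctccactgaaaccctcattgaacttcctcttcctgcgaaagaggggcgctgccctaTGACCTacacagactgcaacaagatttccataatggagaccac
No 2 of these matches overlapped. Hoxa2 held TGATNNAT and TGACAG, read as ATCAATCA and TGACAG and beginning 114 and 47 bases before the start. Hoxd4, Hoxd10 and Hoxc4 each held AGGTCA on the other strand (TGACCT), beginning 98, 58 and 43 bases before the start. Hoxd9 held 1 GC box, 209 bases before the start. Among all 33469 promoters of the table, 7.96% held TGATNNAT, 15.8% TGACAG, 14.1% AGGTCA, 30.5% GGGCGG and 12.9% TATAAA. The 5 promoters shared no single motif, and a match of letters describes the sequence only.

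The arrays varied in ways that touch the Hox genes. The 75th percentile ranged from 1594 to 4298 units, and 60.1 to 77.0% of probes were well above background on 35 arrays against 88.5% on the array of 340 kBq rat 4. Of 12 follicular cell markers, 7 to 11 were well above background on each array, with Tg on all 36 and the probe of Slc26a4 on none. The level of Tg, the thyroglobulin gene, nevertheless spanned -4.51 to 7.48 between rats, that of the parathyroid hormone gene Pth -8.68 to 6.95 and that of Krt4, a keratin of squamous epithelium, -5.55 to 7.14. The follicular score, the mean of the list in SD units over the 36 arrays, ran from -0.73 to 0.91 within the 4 controls alone. In such whole-tissue samples fewer cells of a type and less RNA per cell cannot be told apart.

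Of the 20 Hox genes, 9 were detected, here meaning well above background on at least 18 of the 36 arrays by at least 1 probe: Hoxa2, Hoxa7, Hoxb4, Hoxb7, Hoxc4, Hoxc5, Hoxd4, Hoxd9 and Hoxd10. They came from all 4 clusters, as 2 of 5 Hoxa genes, 2 of 6 Hoxb genes, 2 of 3 Hoxc genes and 3 of 6 Hoxd genes with a probe. Hoxa2, Hoxb4, Hoxd4 and Hoxd9 were well above background in all 36 rats. Counted over probes, 9 of 22 Hox probes passed, where 70.1% of all probes did.

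**Figure D1:**
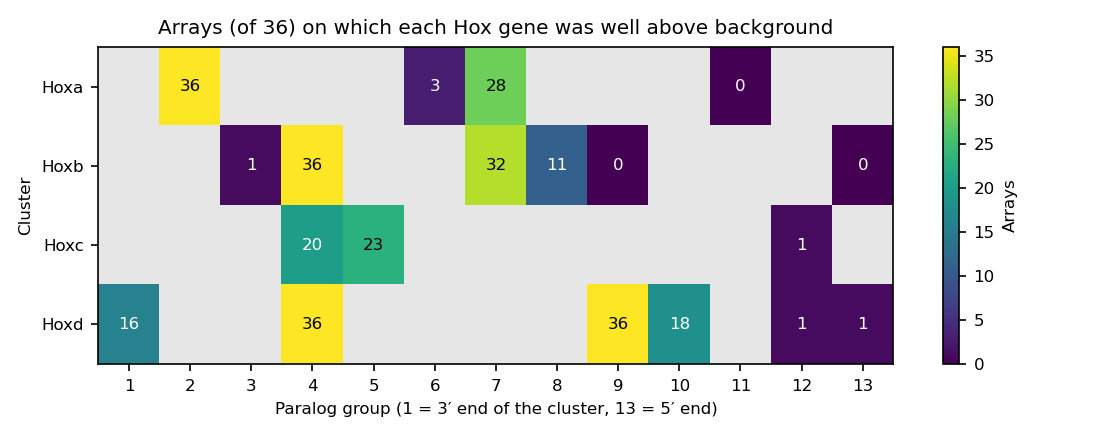
Number of arrays, of 36, on which each Hox gene was well above background (the higher of its probes), by cluster (rows) and paralog group (columns); grey cells had no matched probe or are not shown. The 4 genes at 36 arrays were Hoxa2, Hoxb4, Hoxd4 and Hoxd9, and the 5 genes of groups 11 to 13 were at 0 or 1.

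Along the clusters, 7 of 12 genes of paralog groups 1 to 8 were detected, and 2 of 8 genes of groups 9 to 13. The counts depend on the limit: with a signal above the 99th percentile of the negative control spots on at least 18 arrays they were 12 of 12 and 4 of 8, with Hoxd13 on 33 arrays and Hoxd12 on 20. Both of the genes detected in groups 9 to 13, Hoxd9 and Hoxd10, lay side by side in the Hoxd cluster, in genes known for limb and trunk patterning. Their Hoxb counterpart Hoxb9 was on no array. None of the 5 genes of groups 11 to 13, which pattern the limb ends, urogenital tract and tail in the embryo, was well above background on more than 1 array: Hoxa11 and Hoxb13 were on 0, and Hoxc12, Hoxd12 and Hoxd13 on 1 each. That 1 array was the one of 340 kBq rat 4 for all 3 genes, and for Hoxb3, which patterns the hindbrain and pharyngeal arches, as well.

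Between these ends, Hoxd1, a gene of the 3′ end, was on 16 arrays and Hoxb8 on 11. Hoxa6 was on 3 arrays. The 2 probes of Hoxc5 disagreed, with 23 arrays against 1. In RefSeq's order the gene Hoxc6 spans Hoxc5 and Hoxc4, so transcripts of these neighbours may share sequence, and the places of the probes were not checked. The other Hox genes of the rat, 19 of 39 in RefSeq, had no matched probe and were not analysed here.

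Per rat, 6 to 11 of the 20 genes were well above background, with a median of 8, except 16 in 340 kBq rat 4. The medians by group lay between 6.5 (4700 kBq) and 9.5 (9 kBq), with 7.5 in the controls. The groups overlapped throughout: the controls ran from 6 to 10, the 4700 kBq rats from 6 to 9 and the 9 kBq rats from 6 to 10. By group, Hoxc4 was on all 4 arrays at 260 and 760 kBq and on 1 at 88, 170, 1300 and 4700 kBq, with 2 in the controls. Hoxd10 was on 3 arrays at 9, 260, 340 and 760 kBq, on 1 in the controls and on 0 at 4700 kBq.

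Hoxd3, which lies between Hoxd4 and Hoxd1, had no probe by accession. The study's own list calls 1 further probe Hoxd3, and it was well above background in 3 rats, at -3.41 (9 kBq rat 1), -2.08 (170 kBq rat 3) and -6.59 (340 kBq rat 4). In the other 33 rats it lay between -9.49 and -6.36. Its next-door neighbour Hoxd4 was well above background in all of them. In limma it was not called in any of the 8 comparisons (adjusted p from 0.598 to 1.0), and with no control above background and at most 1 array of an injected group, no fold is given. The probe stands outside the 22 and outside every count.

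**Figure D2:**
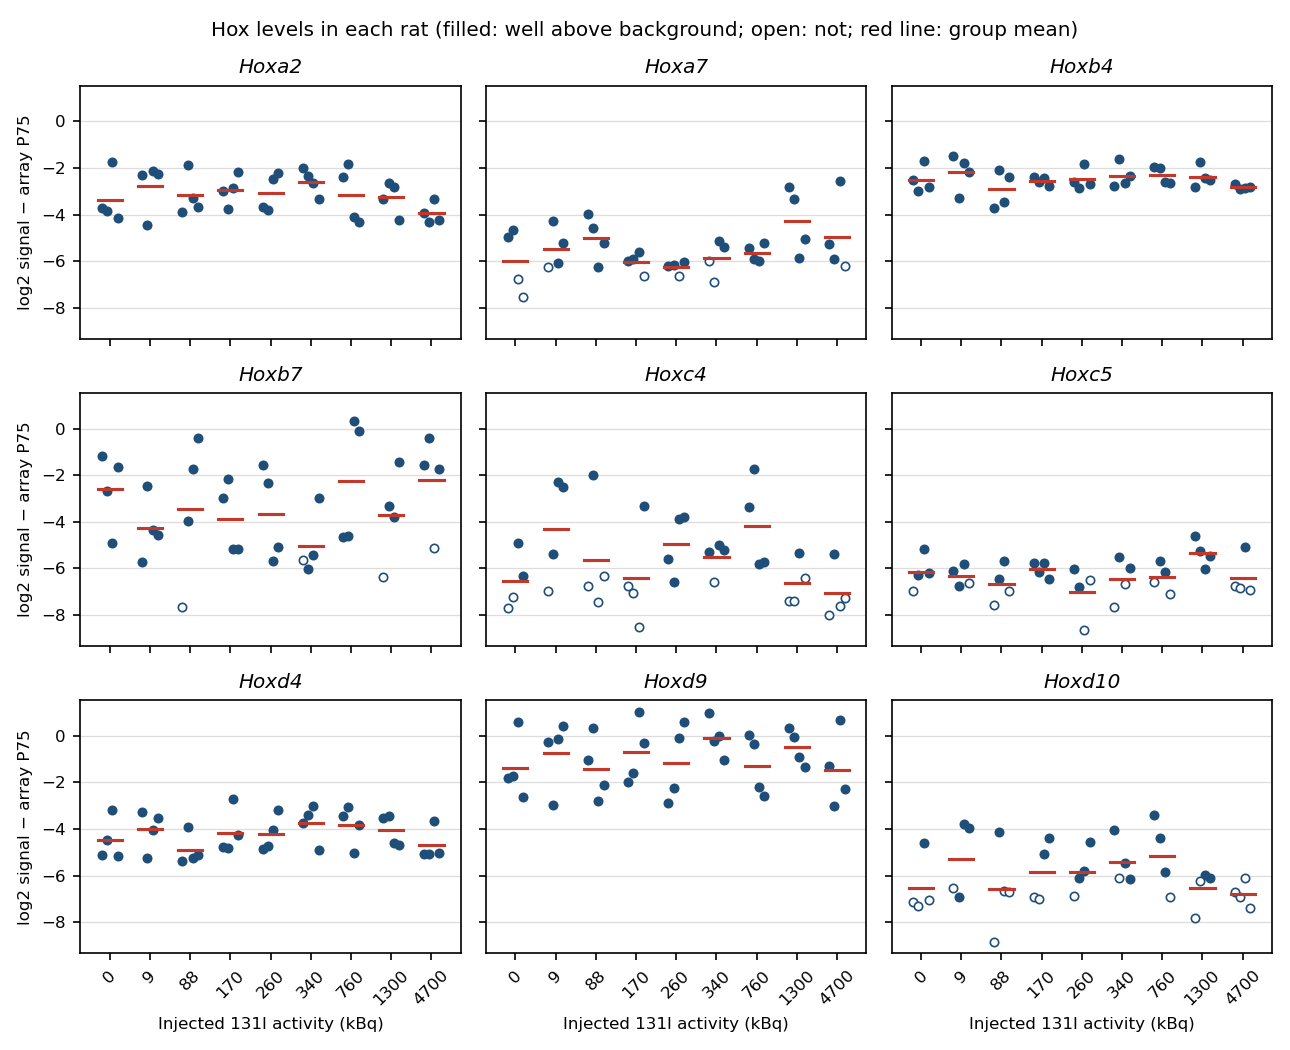
Level of the 9 detected Hox genes in each rat (log2 signal minus the array's 75th percentile) by injected activity in kBq; filled points were well above background, open ones were not, and the red line is the mean of 4 rats. The rats of a group spread widely, for Hoxb7 from -4.92 to -1.17 in the controls, and the groups overlap.

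The spread between rats of 1 group was wider for most of these genes than for the median detected probe. The SD within groups, pooled over all 9, had a median of 1.03 over the 9 detected Hox genes, against 0.58 over all probes detected by the same criterion. Hoxb7 had the widest spread of the 9 (2.08, wider than 95.8% of detected probes), followed by Hoxc4 (1.70), Hoxd9 (1.35) and Hoxd10 (1.30). Hoxa7, Hoxa2, Hoxd4 and Hoxc5 were wider than 80.1, 73.3, 69.9 and 66.55% of detected probes. Hoxb4 varied least, at 0.52, wider than 43.4% of detected probes. Probes were not matched for level here, and Hoxa7, Hoxc4, Hoxc5 and Hoxd10 were well above background on only 28, 20, 23 and 18 arrays. Over the 36 arrays Hoxb7, a gene of the middle of its cluster, ran from -7.64 to 0.32 with a median of -3.55, and Hoxd9 from -3.03 to 1.03 with a median of -0.98.

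The question of the series was whether the injected activity changed transcript levels, and limma called no change of a Hox gene, except where arrays were weighted. In limma fitted over all 30367 probes, with regulated meaning changed by 1.5-fold or more at a Benjamini-Hochberg adjusted p below 0.01, 0 of 22 Hox probes were regulated in each of the 8 comparisons, where 0% of all probes were. With array weights 3 Hox probes were called at 9 kBq, those of Hoxb3, Hoxc4 and Hoxd10, where 7.88% of all probes were. The smallest adjusted p of a Hox probe in limma was 0.125, at 340 kBq. At an unadjusted p under 0.05, the number of Hox probes and the share of all probes were 1 and 3.22% at 9 kBq, 1 and 3.35% at 88 kBq, 1 and 2.39% at 170 kBq, and 0 and 1.11% at 260 kBq. At the higher activities they were 5 and 13.6% at 340 kBq, 1 and 1.64% at 760 kBq, 2 and 4.22% at 1300 kBq, and 0 and 1.66% at 4700 kBq. All 11 of these were higher than in the controls.

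Those 11 fell mostly on genes near or at background. Hoxb3 accounted for 5 of them, at 9, 88, 170, 340 and 1300 kBq. In the controls Hoxb3 averaged -8.57 ± 0.55 (SD, n = 4), with no array well above background. The means were -7.52, -7.33 and -7.31 at 9, 88 and 170 kBq, -6.51 at 340 kBq and -7.60 at 1300 kBq, and only 340 kBq rat 4 was well above background. With no control array and at most 1 array of an injected group well above background, no fold is given (limma adjusted p = 0.125 at 340 kBq). The groups did not overlap for Hoxb3 at 88, 170 and 340 kBq, the only Hox probe without overlap there, where 1.87, 1.26 and 4.37% of all probes had none. In the other comparisons 0 Hox probes lacked overlap, beside 1.74% of all probes at 9 kBq, 1.05% at 260 kBq, 1.63% at 760 kBq, 1.28% at 1300 kBq and 1.27% at 4700 kBq.

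The other 4 probes at 340 kBq were those of Hoxb13, Hoxc12 and Hoxd13 and the second probe of Hoxc5. Without 340 kBq rat 4, the rat whose array had the most probes above background, 2 Hox probes were under 0.05, against 7.62% of all probes. They were those of Hoxb3 and Hoxb13, with no array of either group then well above background, so that no ratio is given. Without control rat 3 there were 8, against 20.9% of all probes, and without control rat 2 there were 3, against 8.13%. Single rats also moved the counts at the other activities except 88 kBq, where it stayed 1. With each rat left out in turn they were 0 to 2 at 9 kBq, 1 to 2 at 170 kBq, 0 to 1 at 260 and 4700 kBq, 0 to 3 at 760 kBq and 0 to 5 at 1300 kBq. The highest counts at 760 kBq (3) and 1300 kBq (5) came without control rat 3, and 5 also without 1300 kBq rat 4. The median log2 ratio over Hox probes at 340 kBq was 0.75 with that rat, beside 0.31 over all probes. In the other comparisons it lay between 0.05 and 0.38, beside 0.03 and 0.22 over all probes.

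Across all 9 groups, limma's F-test called 0 of 22 Hox probes (0.0132% of all probes), or 2 with array weights (2.04% of all probes), and 1 had an unadjusted p under 0.05, again Hoxb3, where 2.67% of all probes did. The slope on log10 activity over the 32 injected rats also called 0 (0.0132% of all probes). Hoxa11 alone passed an unadjusted p of 0.05, where 10.9% of all probes did, with a slope of 0.27 ± 0.11 (SE) log2 units per 10-fold activity and no array well above background. With each rat left out, 1 to 3 Hox probes were under 0.05 in the F-test (3 without 340 kBq rat 2) and 0 to 3 in the slope (0 without 4700 kBq rat 3, 3 without 760 kBq rat 2). Order of injection and activity cannot be told apart in this slope.

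**Figure D3:**
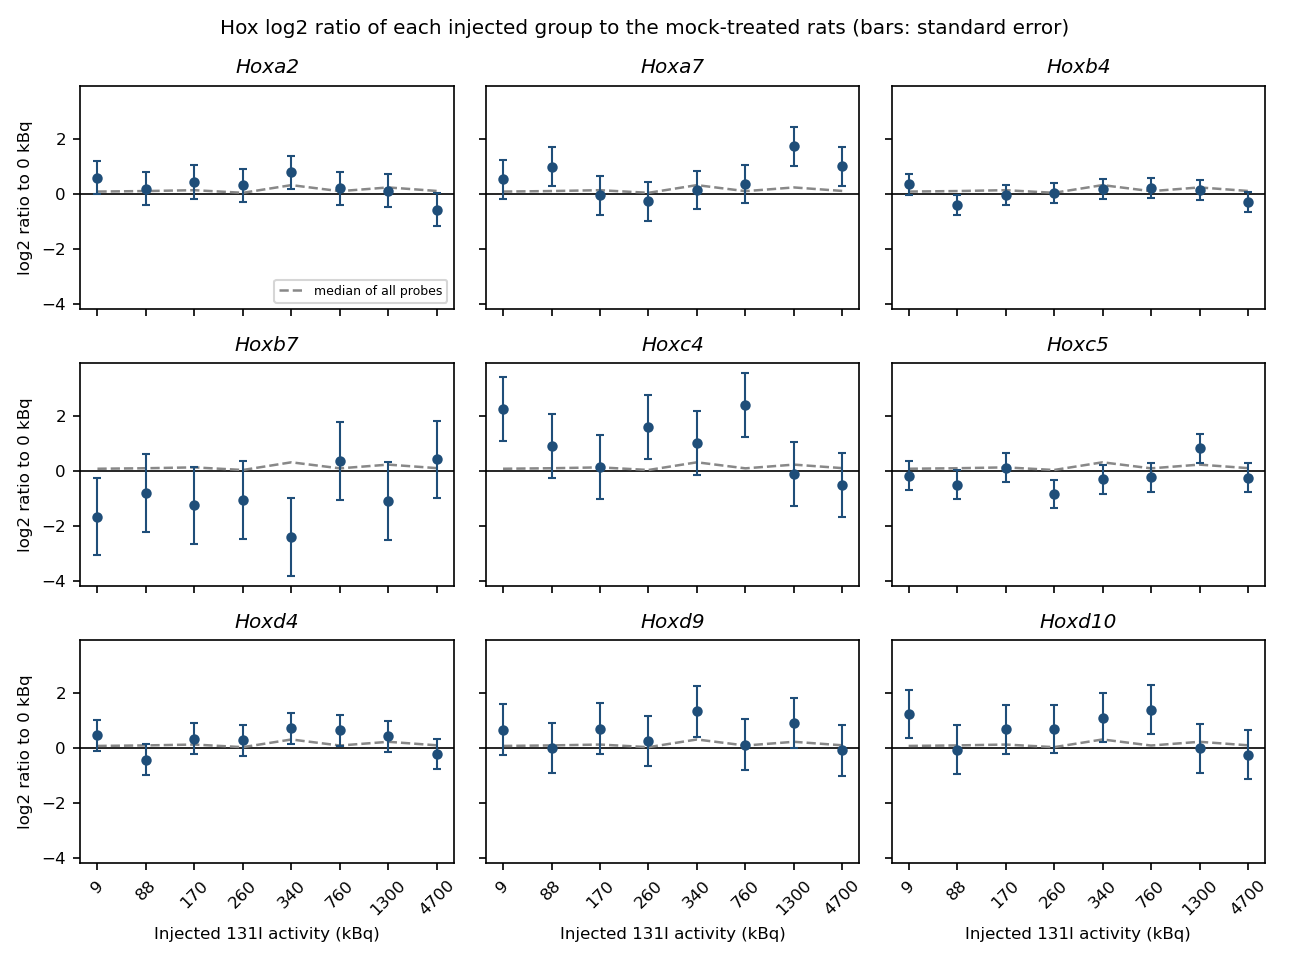
log2 ratio of each injected group to the 0 kBq rats for the 9 detected Hox genes (points, with limma's standard error as bars) by injected activity in kBq; the dashed line is the median over all 30367 probes. None of these ratios was called, and those of Hoxb7 and Hoxc4 were the farthest from 0, at -2.41 (340 kBq) and 2.38 (760 kBq).

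Hoxb7 was the Hox gene with the lowest ratio to the controls. Its controls were at -1.17, -2.70, -4.92 and -1.64, and the 340 kBq rats at -5.64 (not well above background), -6.02, -5.42 and -2.98. The lowest control was below the highest of the injected rats, so the groups overlapped. The log2 ratio was -2.41 ± 1.42 (SE; limma adjusted p = 0.472; exact permutation p = 0.0571, two-sided, where 0.0286 is the smallest that 4 against 4 allows). Within the slides that held both groups it was -3.33 and -3.14.

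The 9 kBq rats had Hoxb7 at -5.74, -2.44, -4.33 and -4.58, and the ratio was -1.67 ± 1.42 (limma adjusted p = 1.0, exact permutation p = 0.20). Within slides it changed sign, at 0.84, -1.64 and -3.41. At 170 kBq the levels were -3.0, -2.16, -5.15 and -5.16 and the ratio -1.26 ± 1.42, and at 260 kBq -1.55, -2.33, -5.70 and -5.09 and -1.06 ± 1.42. Low and high rats stood beside each other within these groups, which also held at 760 kBq, with -4.65, -4.62, 0.32 and -0.08. Relative to controls the ratio at 760 and 4700 kBq was 0.35 and 0.41.

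Hoxd9 was lower in 3 of the controls than in the other one. They were at -1.83, -1.74, 0.60 and -2.64, and the 340 kBq rats at 0.97, -0.24, 0.01 and -1.04. The ratio was 1.32 ± 0.92 (limma adjusted p = 0.535, exact permutation p = 0.171) and, within slides, 1.5 and 1.79. At 170 kBq the rats were at -1.96, -1.58, 1.03 and -0.31, with a ratio of 0.70 ± 0.92 (limma adjusted p = 0.995, exact permutation p = 0.457). Control rat 3, the one at 0.60, also had the highest level among the controls of Hoxa2, Hoxb4, Hoxc4, Hoxc5, Hoxd4 and Hoxd10 and the lowest of Hoxb7.

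Hoxd4, which helps pattern the hindbrain and neck vertebrae, was at -5.10, -4.47, -3.19 and -5.14 in the controls and at -3.45, -3.04, -5.02 and -3.82 at 760 kBq. The ratio was 0.64 ± 0.56 (limma adjusted p = 1.0, exact permutation p = 0.343), with -0.55 and 1.65 within slides. Hoxa2, needed for the second pharyngeal arch, was at -3.72, -3.83, -1.74 and -4.13 in the controls, at -2.30, -4.43, -2.12 and -2.25 at 9 kBq and at -3.92, -4.32, -3.33 and -4.21 at 4700 kBq. The ratios were 0.58 ± 0.60 and -0.59 ± 0.60 (limma adjusted p = 1.0 for both, exact permutation p = 0.486 and 0.40). Control rat 3 and 9 kBq rat 2 each stood apart from the other 3 rats of their group.

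Hoxc4 had the highest ratios among the genes detected. The controls were at -7.69, -7.24, -4.91 and -6.31, the first 2 not well above background, and the 760 kBq rats at -3.38, -1.71, -5.79 and -5.74. The ratio was 2.38 ± 1.16 (limma adjusted p = 1.0, unadjusted p = 0.0497; exact permutation p = 0.114) and, within slides, 1.44 and 4.30. At 260 kBq the rats were at -5.61, -6.57, -3.87 and -3.79, a ratio of 1.57 ± 1.16 (limma adjusted p = 1.0, exact permutation p = 0.171), with -0.00348 and 3.90 within slides. At 9 kBq, where 3 of the 4 arrays were well above background, the ratio was 2.24 ± 1.16 (limma adjusted p = 0.9995, exact permutation p = 0.171). Squamous epithelium markers moved with these groups. Their mean score (in SD units over the 36 arrays) was 0.42 at 760 kBq, 0.63 at 260 kBq and 0.45 at 9 kBq. In the controls it was -0.20, and the part of these markers in the ratios was not tested.

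Hoxa7 was at -4.95, -4.65, -6.75 and -7.55 in the controls (the last 2 not well above background) and at -2.82, -3.34, -5.84 and -5.03 at 1300 kBq. The ratio was 1.72 ± 0.71 (limma adjusted p = 0.835, unadjusted p = 0.0213; exact permutation p = 0.171), with 2.12 and 0.32 within slides. At 88 kBq the rats were at -3.97, -4.58, -6.24 and -5.20, a ratio of 0.98 ± 0.71 (limma adjusted p = 1.0). No slide held both 88 kBq and control rats. The groups overlapped in both cases.

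Hoxc5 was at -6.96, -6.27, -5.16 and -6.20 in the controls (the first not well above background) and at -4.59, -5.25, -6.03 and -5.47 at 1300 kBq, a ratio of 0.81 ± 0.53 (limma adjusted p = 0.835, exact permutation p = 0.171). Hoxb4, which acts in blood-forming cells as well as in the hindbrain, kept closest to the controls. It was at -2.52, -2.97, -1.69 and -2.82 in the controls and at -2.67, -2.88, -2.87 and -2.82 at 4700 kBq, and the ratio was -0.31 ± 0.37 (limma adjusted p = 1.0). At 88 kBq, with -3.72, -2.08, -3.45 and -2.39, it was -0.41 ± 0.37.

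Many of these ratios rested on single rats. Of the 16 chosen by the smallest p in each comparison, 12 moved by over 1.5 times when 1 rat was left out, 9 of them without control rat 3. Without that rat the ratio of Hoxa2 at 4700 kBq was -0.06 and that of Hoxb4 -0.04, and the ratio of Hoxd9 at 170 kBq was 1.37, or 0.12 without 170 kBq rat 3. The ratio of Hoxb7 at 260 kBq ran from -1.83 without control rat 3 to -0.38 without 260 kBq rat 3.

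The Hox genes were next set against marker genes of the cell types that an excised thyroid can hold, over the 36 rats and after removal of the group means. Each of 14 lists was scored per rat as the mean of its genes, each centred and scaled over the arrays. Over 126 pairs, 40 correlations were called at an adjusted p under 0.01 (100000 permutations within groups, two-sided, Benjamini-Hochberg). For 3 lists the rats fell into clusters, here meaning a gap of over 20% of the score's range with at least 3 rats on each side. No correlation over all rats is given for these 3. The C cell and parathyroid scores came near that limit. Their widest gaps were 0.167 and 0.152 of the range, with 19 and 17 rats on the sides for C cells and 20 and 16 for parathyroid. The remaining 11 lists gave 31 called pairs of 99, of which 23 were positive and 8 negative, and 27 kept 1 sign within all 5 slides. The share of all detected probes called with these lists was not computed, so the counts cannot set Hox genes apart from other genes. By Spearman's rho 30 pairs were called, 29 of them among the 31.

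**Figure D4:**
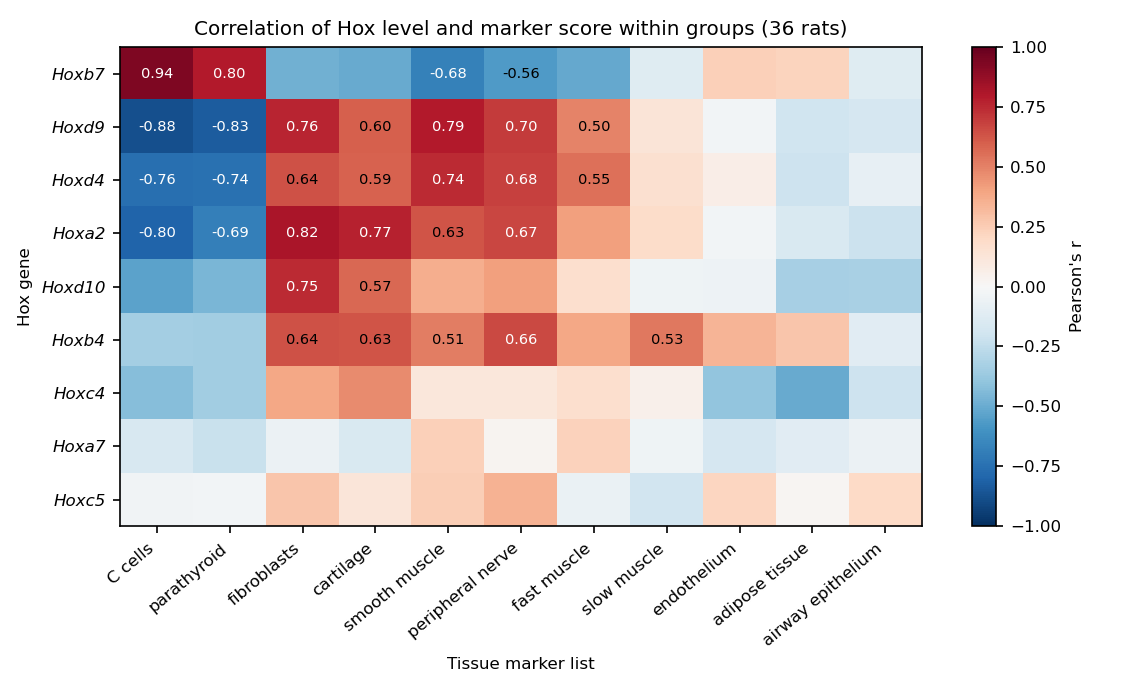
Pearson's r between the level of each detected Hox gene (rows) and the score of 11 tissue marker lists (columns) over 36 rats after removal of group means; numbers stand in the called cells. Hoxb7 was positive with the C cell and parathyroid lists, where Hoxd9, Hoxd4 and Hoxa2 were negative.

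Hoxb7 rose with the endocrine markers. With 8 markers of C cells, the calcitonin-making cells of the thyroid, r was 0.94 (rho 0.94, adjusted p = 0.000105 for r, from a p of 1e-05, the smallest that 100000 permutations can give), 0.94 again without the 2 rats farthest out on the marker score, and 0.93 to 0.97 within slides. On either side of the widest gap in the score, r was 0.76 in 19 rats and 0.87 in 17. In all such splits given here, group means had been taken over rats of both sides. The difference between the sides thus still enters r. With the 3 parathyroid markers r was 0.80 (rho 0.80, adjusted p = 0.000157), 0.78 without the farthest 2 rats, and 0.57 and 0.24 on either side of the widest gap. With smooth muscle r was -0.68 (adjusted p = 0.00063) and with peripheral nerve -0.56 (adjusted p = 0.00614).

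Hoxd9, Hoxd4 and Hoxa2 ran the other way. With the C cell list r was -0.88 for Hoxd9 (rho -0.87, adjusted p = 0.000105), -0.76 for Hoxd4 (rho -0.74, adjusted p = 0.000157) and -0.80 for Hoxa2 (rho -0.80, adjusted p = 0.000315). On either side of the widest gap, with group means again taken over both sides, r was -0.57 and -0.56 for Hoxd9. For Hoxd4 it was -0.20 and -0.47 and for Hoxa2 -0.20 and -0.65. With fibroblast markers the 3 genes had r of 0.76, 0.64 and 0.82, and with smooth muscle 0.79, 0.74 and 0.63. Without the farthest 2 rats the fibroblast values were 0.72, 0.61 and 0.82. Cartilage and peripheral nerve were called with all 3 genes as well, and fast muscle with Hoxd9 (0.50) and Hoxd4 (0.55).

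Hoxb4, which did not follow the endocrine lists (r = -0.34 with C cells), was called with the lists of fibroblasts (0.64), cartilage (0.63), peripheral nerve (0.66), smooth muscle (0.51) and slow muscle (0.53). Hoxd10 was called with fibroblasts (0.75) and cartilage (0.57). The signs with cartilage differed between slides for Hoxb4, Hoxd9 and Hoxd10, as did that of Hoxd9 with fibroblasts (-0.04 to 0.97). Hoxa7, Hoxc4 and Hoxc5 were called with none of these 11 lists, and the airway, adipose and endothelium lists were called with no Hox gene.

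The marker lists were themselves related, so these are not separate lines of evidence. The C cell and parathyroid scores had r of 0.87 with each other and of -0.64 and -0.57 with fibroblasts. Both also rose closely with the follicular score, in which the rats fell into clusters. The part of the amount of thyroid tissue in the C cell and parathyroid relations was not tested. Chga, on the C cell list, is known to be made in the parathyroid too. The smooth muscle score had r of 0.875 with peripheral nerve, 0.62 with fibroblasts and 0.60 with fast muscle, so its relations are not particular to smooth muscle.

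In the follicular cell score 18 rats lay below and 18 above a gap of 22.2% of its range, with rats of all 9 groups on both sides. Within these clusters, r with Hoxb7 was 0.34 and 0.49, with Hoxd9 -0.38 and -0.50, with Hoxd4 -0.44 and -0.66 and with Hoxa2 -0.41 and -0.46 (adjusted p from 0.0416 to 0.443 over 45 such tests, 100000 permutations each). None of the 8 was called, and all had the sign seen with the C cell list. Group means had been taken over rats of both clusters before the split, so the difference between clusters still enters these r. The shared signs therefore cannot show a relation within a cluster. The permutations ran over all rats of a cluster, not within groups.

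**Figure D5:**
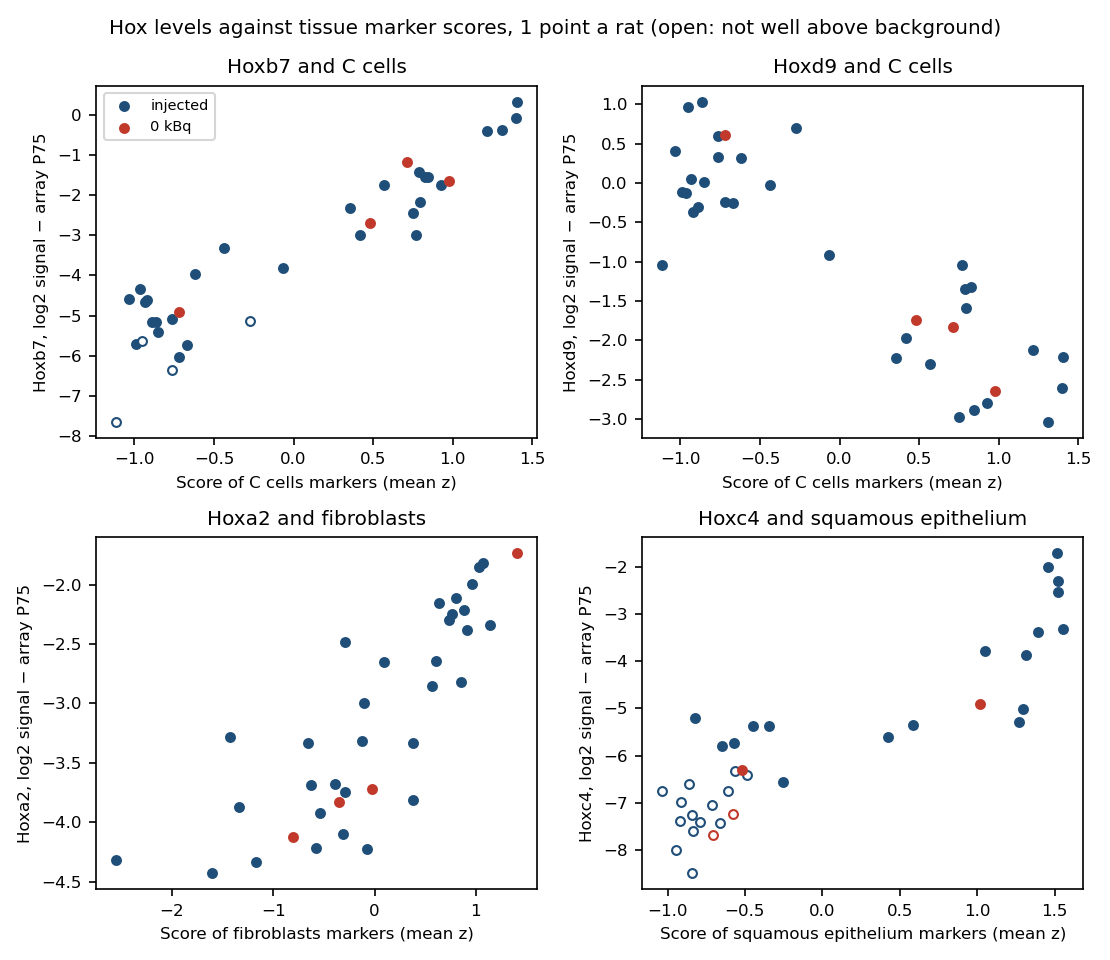
Level of 4 Hox genes (log2 signal minus the array's 75th percentile) against the score of a marker list (mean of z values), 1 point a rat, the 0 kBq rats in red, open points not well above background. Hoxb7 climbed with the C cell score from -7.64 to 0.32 and Hoxd9 fell, and the points of Hoxc4 fell into a lower and a higher cluster of squamous epithelium score.

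The squamous epithelium score split the rats into 23 and 13. As above, group means had been taken over both clusters before the split, so the difference between them still enters r. Hoxc4 had r of 0.67 in the 23 rats (rho 0.62, adjusted p = 0.0194) and of 0.79 in the 13 (rho 0.77, adjusted p = 0.0313), and neither was called. Without the 2 rats farthest out r was 0.40 and 0.57. Hoxd10 had r of 0.45 and 0.71 in the same clusters, also not called. In the 23 rats many Hoxc4 levels were not well above background. The rats with the highest Hoxc4, at -1.71 (760 kBq rat 2), -2.0 (88 kBq rat 2), -2.29 (9 kBq rat 3) and -2.52 (9 kBq rat 4), all belonged to the 13.

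The lymphoid score stood far higher in 3 rats, 9 kBq rat 2, 88 kBq rat 1 and 0 kBq rat 2 (2.79 to 3.22 against at most 0.40 in the others). Hoxa7, known from blood-forming cells, was at -4.26, -3.97 and -4.65 in them, within the upper part of its range, but its highest level, -2.56, was in 4700 kBq rat 3, outside these 3. In the other 33 rats, with group means taken before these 3 were set apart, r was 0.44 (rho 0.39, adjusted p = 0.105) and not called.

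Among themselves the 9 Hox genes gave 11 called pairs of 36, in a comparison added after the data had been seen. The share of called pairs among other detected probes was not computed. Hoxd9, Hoxd4, Hoxa2 and Hoxb7 were each called with the C cell list too, and the part of the amount of thyroid tissue in these pairs was not tested. Hoxd9 had r of 0.84 with Hoxd4 and of 0.82 with Hoxa2 (adjusted p = 0.00018 for both), although Hoxa2 lies on another chromosome. Hoxd10 had r of 0.78 with Hoxa2, 0.70 with Hoxc4 and 0.67 with its neighbour Hoxd9. Hoxb7 was negative with Hoxd9 (-0.79), Hoxd4 (-0.67) and Hoxa2 (-0.65), and had r of -0.18 with Hoxb4, of its own cluster. Genes of 1 cluster thus did not always go together: Hoxa7 with Hoxa2 gave -0.11 and Hoxc5 with Hoxc4 -0.06, neither called.

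The partners and regulators of Hox proteins were counted by the same limit, each gene by its probe with the highest mean. At that limit 70.1% of all probes passed. Of 8 measured TALE cofactors, the Pbx, Meis and related proteins that bind DNA beside Hox proteins, 7 were detected, and of 13 genes of retinoic acid, the signal that opens the Hox clusters in the embryo, 13 were. All 13 measured Polycomb and Trithorax genes, which hold Hox genes silent or active, were detected, as were 8 of 11 factors of the pharyngeal pouches and arches and 0 of 4 ParaHox genes, relatives of the Hox genes from the gut and brain. None of these 49 genes was regulated in either direction in any of the 8 comparisons, where 0% of all probes were.

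Among the members with the smallest unadjusted p was, for the cofactors, Pbx4 at 340 kBq (log2 ratio 1.08 ± 0.47, limma adjusted p = 0.301). For retinoic acid they were Crabp1, its binding protein, at 1300 kBq (-2.14 ± 0.96) and Rxra, a receptor, at 340 kBq (1.0 ± 0.46, limma adjusted p = 0.334). For Polycomb they were Ezh2, its methyltransferase, at 4700 kBq (-1.20 ± 0.64) and Bmi1 at 170 kBq (0.57 ± 0.33). Foxn1 at 9 kBq (1.5 ± 0.55) was among them for the pharyngeal factors, and Gsx2, on 1 array, and Cdx4, on none, for the ParaHox genes.

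No gene of the 14 tissue lists was regulated in any comparison either, where 0% of all probes were. Their levels nevertheless differed by many log2 units between rats. The standard errors show it: Tg at 9 kBq had a log2 ratio of -6.28 ± 2.59 and Calca, the calcitonin gene, of -7.55 ± 4.32 (limma adjusted p = 1.0 for both). At 4700 kBq Pth had 6.42 ± 4.47. At 340 kBq, the comparison with the lowest Hoxb7 ratio, the endocrine scores differed too. The C cell score averaged 0.36 in the controls, at 0.71, 0.48, -0.72 and 0.98, and -0.44 in the 340 kBq rats, at -0.95, -0.72, -0.85 and 0.77. The follicular score averaged 0.36 and -0.42. In both scores 3 of 4 controls were high and 3 of 4 rats at 340 kBq low, and their part in the Hoxb7 ratio was not tested.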

How the data were processed

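Each array file, deposited as scanner output, holds the authors' processed signal as a linear intensity per spot, background-subtracted by Agilent Feature Extraction, with flags for outliers and background. The authors' value table, used for 1 alternative, was deposited as linear intensity on a scale common to the arrays, and Partek is named in the submitters' processing notes. The study used Nexus Expression with limits of 0.01 on the adjusted p and 1.5 on the fold change, and these limits were kept. Control spots and outlier spots were left out, spots of a probe were averaged, and log2 intensity minus the array's 75th percentile was taken. Probes were named by accession through RefSeq (17998 of 30367 probes, 15154 genes). A gene's main probe is the one with the highest mean.

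One limma 3.58.1 fit (R 4.3.3) held all 36 arrays with a mean per group. Benjamini-Hochberg adjustment ran over all probes. Fits were tested on simulated data. Correlations, exact permutation tests and figures used Python 3.11.15 with numpy 2.4.6, scipy 1.17.1, pandas 2.3.3 and matplotlib 3.10.9. The Hox genes, the marker lists (follicular cells, C cells, parathyroid, cartilage, fast and slow muscle, adipose tissue, squamous and airway epithelium, lymphoid cells, fibroblasts, smooth muscle, nerve, endothelium) and the tests were chosen with earlier results of these data known. The genes given per rat were Hoxd3 and, per cluster, the 3 detected genes with the largest SD and the 1 with the smallest. Per comparison they were the 2 detected in all 4 rats of a group with the smallest p. List members named were the 2 with the smallest p. Some genes counted in the totals are not reported here by name. The number of arrays, 4 a group on 5 slides, limits the precision. No spot was saturated.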

Additional observations from a re-analysis of the deposited data

Results flagged for a closer look

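In 90 sets of 4 rats (the 9 detected Hox genes and the Hoxd3 probe in 9 groups), 7 held 1 rat whose gap to the nearest other exceeded Dixon's 95% critical value, where chance gives about 1 in 20. Of the 7, 2 were in control rat 3, whose Hoxd10 was at -4.60 against -7.29 to -7.06 in the other controls and whose Hoxd3 probe was at -8.03 against -9.49 to -9.27, not well above background in any of them. In addition, 3 were in 4700 kBq rat 3, with Hoxc5 at -5.09 against -6.91 to -6.77, Hoxd4 at -3.63 against -5.08 to -5.01 and the Hoxd3 probe at -6.36 against -9.06 to -8.79, not well above background. Hoxa2 in 9 kBq rat 2 was low, at -4.43 against -2.30 to -2.12. Hoxd10 in 1300 kBq rat 1 was low too, at -7.82 against -6.25 to -5.97, and not well above background. The follicular score was -0.731 in control rat 3, -0.635 in 4700 kBq rat 3 and -1.15 in 1300 kBq rat 1, the lowest of their groups, and 0.724 in 9 kBq rat 2, the highest of its group. A low score thus stood beside a high Hoxd10 in control rat 3 and a low Hoxd10 in 1300 kBq rat 1. The part of the tissue in these values was not tested.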

How the results depend on the processing

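The counts of 0 called Hox probes held in the 8 comparisons, the F-test and the slope, wherever each was run, under quantile normalization, median centring, normexp background correction, the authors' table, a filter on dim probes, a slide block, robust fitting, an adjusted p limit of 0.05, a fit of only the 2 groups, adjustment over all comparisons and each rat left out (0 to 0). Array weights moved 2 counts: 3 Hox probes were called at 9 kBq (Hoxb3, Hoxc4 and Hoxd10, among 2392 of all probes) and 2 in the F-test, and the cause was not tested. The 16 ratios chosen by the smallest p kept their sign under every alternative. With array weights 13 moved by over 1.5 times, and 6 did so under normexp. With a slide block 3 did, and 12 did when 1 rat was left out. Detected genes were 16 by a signal above the negative controls' 99th percentile, 4 on all 36 arrays and 17 on at least 1, by construction of these limits, and 8 to 9 with each rat left out, since Hoxd10 was lost without any 1 of the arrays that held it. Called relations with the tissue lists ran from 32 (without 0 kBq rat 3) to 46 (without 88 kBq rat 1), and were 53 under normexp, 39 with the authors' table and 40 with a slide block. Rat numbers only name the animals: same-numbered rats had a mean correlation of -0.02 (-0.71 to 0.76 over 144 pairs), and 8 of 36 rats were closest to their own number. With the replicate block 0 Hox probes were called in the comparisons and 43 relations. For the 11 Hox genes that were not detected, most levels are only bounds, which limits what these arrays can show of them.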

Other observations

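Probes whose levels went most closely with a Hox gene were listed after the values had been seen, over 36 rats, after removal of group means and among named probes detected on at least 18 arrays. They are a description only, since the points share the arrays and the tissue. For Hoxb7 they were those of Ina (r = 0.96), Scgn (0.95), Pcsk1n (0.95), Pcsk2 (0.95) and Chgb (0.94), the last of them on the C cell list. Scgn, Pcsk1n and Pcsk2 are known from cells that store hormones in granules. For Hoxd10 they were Barx1 (0.93), Inmt (0.93) and Reln (0.93), and for Hoxa2 Cavin3 (0.94) and Dpysl3 (0.94). For Hoxc4 the closest were Serpinb8 (0.92), Acap2 (0.91) and Wnt10a (0.91). For Hoxa7, Hoxb4 and Hoxc5 the highest r of a named probe was 0.80, 0.77 and 0.76.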
